A study of Arabidopsis thaliana with 12 samples.

Results

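Histones are the proteins on which DNA is wound, and the 40 genes described here encode the core histones H2A, H2B, H3 and H4 and the linker histone H1 of Arabidopsis thaliana. The genes HTA8, HTA9 and HTA11 of the variant H2A.Z were left out. The 40 genes were chosen by their locus identifiers out of the 27655 genes of the deposited table. They comprise 4 H2A, 2 H2A.X, 3 H2A.W, 11 H2B, 5 H3.1, 3 H3.3, 8 H4 and 3 H1 genes, and HTA4. HTA4 is an H2A-family gene whose protein is closer to H2A.Z. It is named apart below but kept in the counts and in the sum of all 40 genes. RNA of seedlings was sequenced in 12 libraries, 3 for each of 4 groups. The groups were wild type Columbia (Col) kept at 21 °C, Col moved to 27 °C, the mutant fve-4 kept at 21 °C and fve-4 moved to 27 °C. All seedlings had grown for 7 days at 21 °C in short days of 8 h light and 16 h dark. The move was made at ZT1 (ZT counts hours from lights on), and all groups were harvested at ZT13, 12 h later. The treatment protocol also speaks of mannitol, but no library analysed here is labelled with it. The series title asks how FVE and the deacetylase HDA9 act on growth in warmth through H2A.Z. FVE, also named MSI4, is a WD40-repeat protein found in histone deacetylase complexes. The nature of the fve-4 allele is not given in the sources used here.

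In plants as in animals, most core histone RNA is made while DNA is copied. H3.1 is then placed on the new strands by the chaperone CAF-1, whereas H3.3 is put in outside replication, largely at transcribed genes. H2A.W lies in heterochromatin, H2A.X is phosphorylated beside DNA breaks, and H1 binds the linker DNA between nucleosomes. Dividing cells are a small share of a seedling, and sit mainly in the meristems of root and shoot and in young leaves.

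The promoters of replication-linked histone genes in plants are known for short shared elements, so 3 were searched on both strands in the 250 bases before the annotated start of each gene (RefSeq, TAIR10.1). The octamer CGCGGATC (GATCCGCG on the other strand) was found before 10 of the 40 genes (25%), against 37 of 27443 windows of the same length over all genes (0.135%). The hexamer ACGTCA was found before 8 of 11 H2B genes (72.7%), against 7.69% of all windows, and before 11 of the 40 genes in all (27.5%). The E2F site, TTTNNCGC with NN read as CC, GG, CG or GC, was found before 3 of the 40 (7.5%), against 1.41% of all windows. HTR9 and HTB2 were the members with 2 kinds of element, which did not overlap in either. A match is a description of letters in these windows, not of a bound factor. Of the 10 genes with the octamer, HTA10, HTA13 and H4 AT1G07660 are not printed, and all of these fell in Col. HTA10 and HTA13 have GATCCGCG nearest their starts, as the printed HTR5 and H1.1 do, and H4 AT1G07660 has CGCGGATC. The following stretches show the octamer in capitals before H3.1, H2A.W and H4 genes that fell in warmth in Col, and before an H3.3 and an H1 gene that did not.
HTR1 (H3.1, chr5:26120670-26120737, minus strand): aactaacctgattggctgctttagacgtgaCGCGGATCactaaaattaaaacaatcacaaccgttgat
HTR2 (H3.1, chr1:2972335-2972383, minus strand): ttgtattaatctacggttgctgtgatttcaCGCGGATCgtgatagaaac
HTR9 (H3.1, chr5:3271040-3271107, minus strand): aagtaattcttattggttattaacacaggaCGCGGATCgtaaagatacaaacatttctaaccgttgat
HTA6 (H2A.W, chr5:24116299-24116366, minus strand): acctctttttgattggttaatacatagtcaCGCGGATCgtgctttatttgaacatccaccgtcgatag
H4 AT5G59690 (chr5:24051373-24051440, plus strand): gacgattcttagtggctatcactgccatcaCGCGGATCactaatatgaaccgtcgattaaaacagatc
HTR5 (H3.3, chr4:18558946-18558992, minus strand): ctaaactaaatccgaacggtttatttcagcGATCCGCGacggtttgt
H1.1 (chr1:2077768-2077825, minus strand): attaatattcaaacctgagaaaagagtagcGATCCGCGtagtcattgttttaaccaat

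The next stretches show the hexamer in capitals before 4 H2B genes, the class in which it was commonest.
HTB5 (chr2:15736649-15736714, plus strand): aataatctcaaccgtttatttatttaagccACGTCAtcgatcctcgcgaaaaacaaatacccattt
HTB6 (chr3:19889171-19889236, plus strand): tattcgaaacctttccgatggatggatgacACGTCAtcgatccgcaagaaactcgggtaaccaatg
HTB9 (chr3:16898134-16898199, minus strand): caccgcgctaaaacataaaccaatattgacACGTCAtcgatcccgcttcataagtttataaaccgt
HTB11 (chr3:16914184-16914249, minus strand): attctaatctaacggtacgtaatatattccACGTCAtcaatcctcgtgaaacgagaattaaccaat

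The last stretches hold the E2F site in capitals, and are shown because 2 H4 genes on chromosome 3 carry the same letters at the same distance from their starts, 237 bases.
H4 AT3G45930 (chr3:16883066-16883116, plus strand): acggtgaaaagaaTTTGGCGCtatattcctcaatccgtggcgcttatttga
H4 AT3G46320 (chr3:17020628-17020678, minus strand): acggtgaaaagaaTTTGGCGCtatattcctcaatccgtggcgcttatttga
HTB2 (H2B, chr5:7652838-7652905, minus strand): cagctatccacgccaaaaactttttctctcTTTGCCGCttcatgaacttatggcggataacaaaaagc

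The proteins of the classes differ in how alike they are. All 5 H3.1 genes encode 1 protein, all 8 H4 genes encode 1 protein, and the 3 H3.3 genes share 1 protein in at least one annotated isoform. H3.1 and H3.3, both 136 residues, differ at 4 residues. The label of HTA4 (AT4G13570) goes against its sequence: the encoded protein was 55.9 to 61% identical to the 3 H2A.Z proteins HTA8, HTA9 and HTA11, but 27.7 to 41.7% identical to the 9 H2A, H2A.X and H2A.W members. It is therefore given by its name alone. Stretches of 100 bases that occur exactly elsewhere in the genome made up 4.32 to 12.1% of the exons of the H4 genes AT1G07820, AT1G07660, AT3G45930 and AT3G46320 and 0 in the other members. Stretches of 50 bases made up 19.4 to 30.8% in those 4 genes, 8.48% in H4 AT5G59690 and 6.94% in H4 AT5G59970. They made up 1.28 to 3.1% in HTA4, HTA10, HTA13, HTB9, HTB11, HTR3 and HTR9, and 0 in the rest. The division of reads among all these genes is uncertain, most of all among the first 4.

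Depth ran from 11454833 to 14554413 reads per library, and the labels do not say that replicates came from separate cultures, so p-values measure the spread between these libraries, which may be technical. FVE (AT2G19520) was at 39.3 to 52.7 TPM (a share of all transcripts, adjusted for gene length and scaled to 1000000 per library) in the Col libraries and at 4.89 to 7 TPM in the fve-4 libraries. Replicate 3 of Col at 27 °C stood apart from its group on the second principal component of all genes (28.3 against 12.4 and 13.3), and counts without it are given beside the results. The tissue label was met by photosynthesis genes and by root genes: 4 leaf markers summed to at least 26840 TPM and 10 root markers to at least 1884 TPM in each library. A pair of sperm cell markers summed to at most 0.729 TPM.

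Each test was made with limma on log2(TPM + 1) over the 19863 genes with at least 1 TPM in at least 3 libraries, and a call means a Benjamini-Hochberg adjusted p under 0.05. Changes are differences of means on that log2 scale, with the standard error (SE), and understate the change of low genes. Of the 40 histone genes, 38 passed the filter. HTB8 (AT1G08170), an H2B of sperm cells, had 0 to 10 reads per library and reached 1 TPM in 1 of the 12. HTB10 (AT5G02570) had 0 reads in all libraries, which allows up to 3 reads in each if its reads could be counted. Its whole span of 522 bases lies within HTA12 on the opposite strand, and the sources used here do not say how reads of such overlaps were assigned. Overlaps with a neighbour also make the reads of HTA3, HTA4, HTA12, HTA13, HTB9, H1.1 and H1.2 (opposite strand) and HTR3 (same strand, 328 bases) uncertain.

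Most histone genes fell at 27 °C in Col. There, 29 of the 38 genes tested fell and 6 rose, whereas 25.1% of all genes tested fell and 36.7% rose, and the median change was -0.74 for the histone genes and 0.08 for all genes. All 5 H3.1 genes, all 8 H4 genes and 8 of 9 H2B genes tested fell. The 6 that rose were HTA1, the H3.3 genes HTR4 and HTR5, and all 3 H1 genes. In whole seedlings, fewer cells of a type and less RNA per cell cannot be told apart. Of 10 root markers 7 fell as well, and their summed level, most of it the beta-glucosidase PYK10, was 2975 to 3153 TPM at 21 °C and 1884 to 2410 TPM at 27 °C. Replicate 3 of Col at 27 °C was the lowest of its group in each of the 10. PER45 was there at 37.6 TPM, against 82.2 and 92.3 in replicates 1 and 2 and 67.8 to 88.9 at 21 °C. PYK10 was there at 1738 TPM, against 2126 and 1989 in replicates 1 and 2 and 2603 to 2782 at 21 °C. No count of root markers without that library is given here, and their part in the result was not tested. Without replicate 3 of Col at 27 °C, 28 histone genes fell and 6 rose, against 4455 and 7103 of the 19863 genes. After rescaling by median ratios, 30 fell and 2 rose, H1.3 and HTR4, while over all 19863 genes 6070 fell and 6042 rose on that scale.

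In fve-4 the same shift lowered 24 of the 38 genes and raised 1, H1.1, where 14% of all genes fell and 25.2% rose. The median change was -0.30, against 0.07 for all genes. With median-ratio rescaling 30 fell and 1 rose, against 3743 and 3709 of the 19863 genes. The genotypes differed in how far the genes moved: in the interaction, the warm change in fve-4 minus that in Col, 22 of the 38 genes were higher and 4 lower, against 14.4% and 18% of all genes, with a median of 0.43 beside -0.02. A positive value on a gene that fell means a smaller fall in fve-4. The 4 lower were H1.2, H1.3, HTR4 and HTR5. The warm changes in Col and in fve-4 stand side by side in the plot of changes from 21 to 27 °C.

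**Figure D1:**
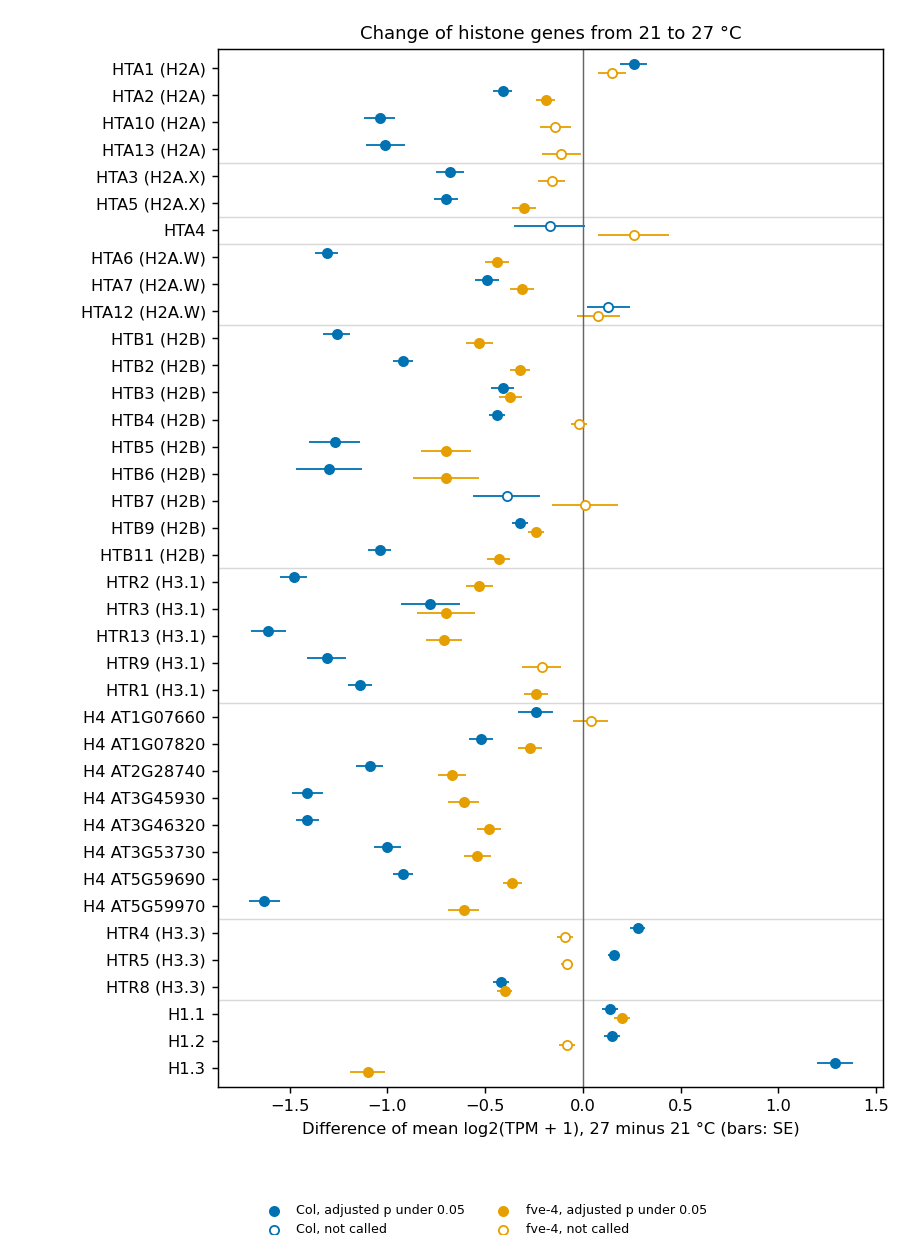
Change of each of the 38 tested histone genes from 21 to 27 °C in Col (blue) and fve-4 (orange), as the difference of mean log2(TPM + 1) with its SE, by histone class; filled points passed an adjusted p of 0.05. Most H3.1, H4 and H2B genes lie further below 0 in Col than in fve-4, and H1.3 lies at 1.29 in Col and -1.10 in fve-4.

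At 21 °C, 10 of the 38 genes were higher in fve-4 than in Col and 6 were lower, against 15.3% and 8.49% of all genes, and the median difference was 0.00 beside 0.05. Of these 16 calls, 8 held under every alternative tried, and median-ratio rescaling gave 6 higher and 10 lower, against 2257 and 2453 of the 19863 genes. At 27 °C, 29 were higher in fve-4 and 2 lower, H1.3 and HTR4, against 20.9% and 17.6% of all genes, with a median of 0.48 beside 0.02. All 9 H2B genes tested, all 8 H4 genes and 4 of 5 H3.1 genes were among the higher. Without replicate 3 of Col at 27 °C, 25 were higher and 2 lower. Over all 19863 genes, 3174 were higher and 2926 lower without it, and 4158 and 3490 with it. The calls of HTA2 (0.0166 to 0.129), HTB6 (0.0112 to 0.0725), H4 AT1G07660 (0.00937 to 0.103) and HTR5 (0.0442 to 0.24) did not hold under every alternative, whose adjusted p ranges are in parentheses. All 4 were lost without replicate 3 of Col at 27 °C (0.0901, 0.0616, 0.103 and 0.0976 in that order). All 4 were likewise lost without replicate 1 of fve-4 at 27 °C (0.106, 0.0725, 0.0715 and 0.0779). Comparisons of the same group, such as those within Col and between genotypes at 27 °C, share their libraries and are not independent.

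**Figure D2:**
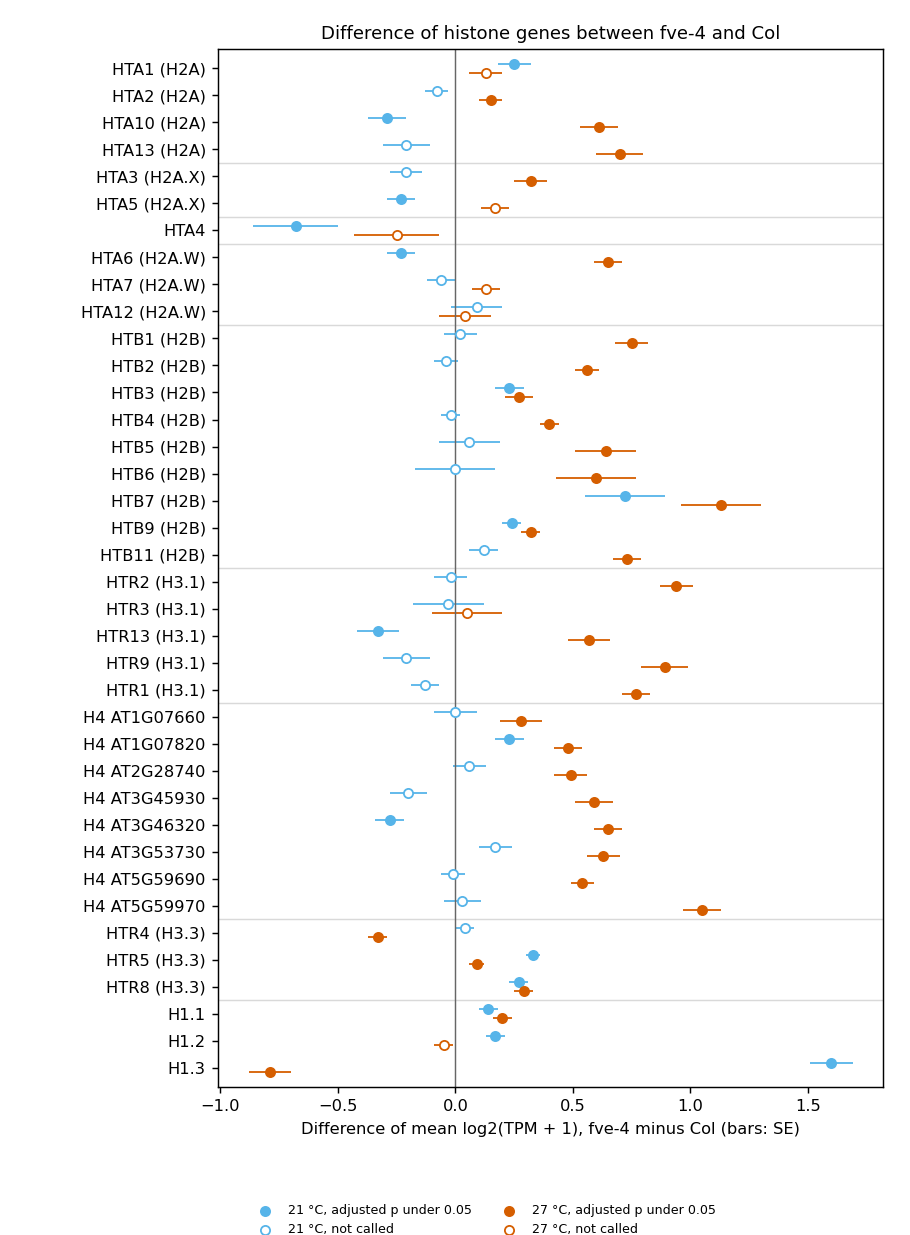
Difference between fve-4 and Col of each of the 38 tested histone genes at 21 °C (light blue) and at 27 °C (dark orange), as the difference of mean log2(TPM + 1) with its SE; filled points passed an adjusted p of 0.05. At 27 °C most genes lie to the right of 0, while at 21 °C they lie on both sides, with H1.3 at 1.60.

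Summed over each class, H3.1 had the lowest ratio of 27 to 21 °C in Col. The summed level of the 5 H3.1 genes, in TPM as deposited, was 1067 ± 70 (SD, n = 3) in Col at 21 °C and 425 ± 26 at 27 °C, or 0.399 times, and 982 ± 93 and 757 ± 32 in fve-4, or 0.771 times. H4 summed to 1570 ± 53 and 777 ± 28 in Col and to 1588 ± 89 and 1161 ± 38 in fve-4. H2B summed to 2147 ± 57 and 1316 ± 48 in Col and to 2271 ± 71 and 1852 ± 4.5 in fve-4. In each of these classes every Col library at 27 °C lay below every fve-4 library at 27 °C, and every library at 27 °C below those of its genotype at 21 °C. H2A summed to 607 ± 19 and 363 ± 26 in Col and to 539 ± 38 and 499 ± 13 in fve-4. H2A.X went from 309 ± 10 to 191 ± 17 in Col and from 265 ± 12 to 222 ± 8.7 in fve-4, and H2A.W from 542 ± 24 to 276 ± 18 and from 482 ± 27 to 371 ± 8.2. The H2A libraries of fve-4 at 21 and 27 °C overlapped, and those of H2A.X and H2A.W did not. All 40 genes together summed to 8033 ± 206 and 5301 ± 172 in Col and to 8271 ± 272 and 6817 ± 69 in fve-4.

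**Figure D3:**
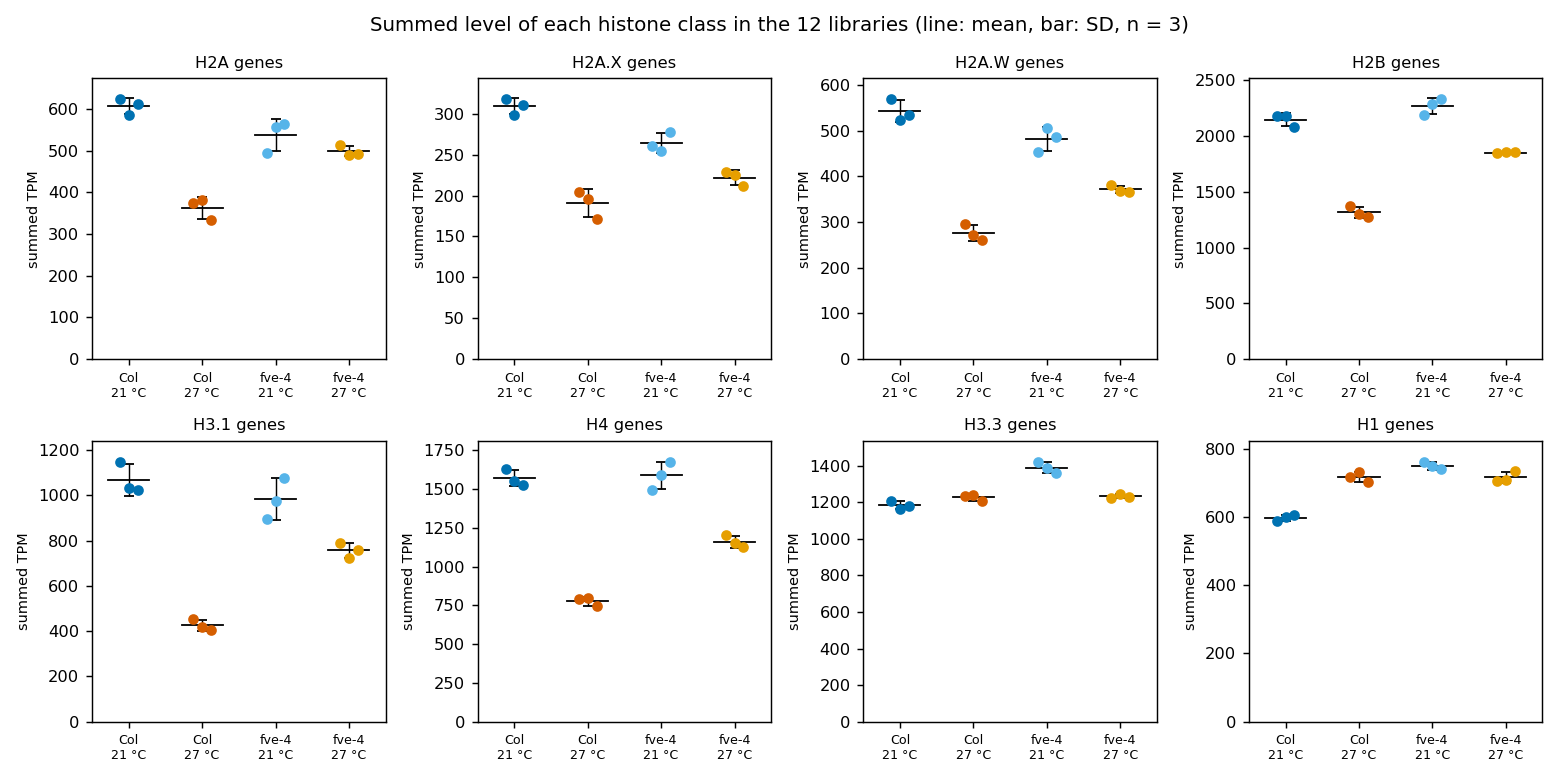
Summed TPM of each histone class in the 12 libraries (points), with the mean and SD of each group of 3; the vertical axes start at 0. H3.1 goes from a mean of 1067 to 425 in Col and from 982 to 757 in fve-4, while the group means of H3.3 lie between 1184 and 1390.

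Among the H3.1 genes, which supply histone H3 during replication, HTR1 (AT5G65360) had the highest level. It was at 425, 416 and 405 TPM in Col at 21 °C, 201, 182 and 180 in Col at 27 °C, 350, 370 and 419 in fve-4 at 21 °C and 329, 311 and 321 in fve-4 at 27 °C. Every library at 27 °C was below those of its genotype at 21 °C, the Col ones furthest, and the genotypes overlapped at 21 °C. The change was -1.14 (SE 0.06, adjusted p = 3.74e-09) in Col and -0.24 (SE 0.06, adjusted p = 0.00732) in fve-4, and the interaction was 0.90 (SE 0.09, adjusted p = 1.46e-05). HTR2 (AT1G09200) was at 404, 346 and 351 TPM in Col at 21 °C, 137, 129 and 126 in Col at 27 °C, 329, 358 and 403 in fve-4 at 21 °C and 265, 246 and 243 in fve-4 at 27 °C. The 3 Col libraries at 27 °C were lowest, and no library of fve-4 at 27 °C reached the 21 °C range. HTR2 had the smallest adjusted p of its class in Col, with a change of -1.48 (SE 0.07, adjusted p = 2.05e-09), and again between genotypes at 27 °C, with a difference of 0.94 (SE 0.07, adjusted p = 2.03e-06). The neighbours HTR13 and HTR9, 577 bases apart on chromosome 5, were both measured in every library. HTR13 (AT5G10390) was at 109, 91.2 and 88.2 TPM in Col at 21 °C, 34.3, 29.3 and 28.8 in Col at 27 °C, 70.7, 76.3 and 81.1 in fve-4 at 21 °C and 48.3, 46.1 and 44.1 in fve-4 at 27 °C. No groups overlapped in the comparisons made, and in fve-4 the gene fell by 0.71 on the log2 scale (SE 0.09, adjusted p = 2.77e-05). HTR9 (AT5G10400) was at 203, 170 and 173 TPM in Col at 21 °C, 78.2, 75.2 and 64.6 in Col at 27 °C, 139, 164 and 169 in fve-4 at 21 °C and 142, 117 and 147 in fve-4 at 27 °C. Its libraries of fve-4 at 21 and 27 °C overlapped and the change there was -0.21 (SE 0.10, adjusted p = 0.114), called after median-ratio rescaling (-0.29, 0.0293), in limma-voom (-0.29, 0.0125) and without replicate 1 of fve-4 at 21 °C (-0.30, 0.0441), in a range of 0.0125 to 0.417. The interaction of HTR9 was 1.1, the highest among the histone genes. At 21 °C, HTR13 was lower in fve-4 than in Col, -0.33 (SE 0.09, adjusted p = 0.0147), a call lost without replicate 1 of Col at 21 °C (adjusted p = 0.0634) or replicate 1 of fve-4 at 21 °C (adjusted p = 0.0636), with a range of 0.00182 to 0.0636 over the alternatives. HTR3 (AT3G27360), at 2.79 to 7.33 TPM, fell in both genotypes with an interaction of 0.08 (adjusted p = 0.808).

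H4 pairs with H3 in every nucleosome, and its 8 genes all fell in Col, with changes of -1.63 to -0.24 on the log2 scale. AT5G59690 had the highest level, at 439, 430 and 437 TPM in Col at 21 °C, 226, 237 and 227 in Col at 27 °C, 397, 454 and 449 in fve-4 at 21 °C and 341, 336 and 330 in fve-4 at 27 °C. The Col libraries at 27 °C were lowest and the 21 °C ranges of the genotypes overlapped. Its change was -0.92 (SE 0.05, adjusted p = 3.27e-09) in Col and -0.36 (SE 0.05, adjusted p = 5.8e-05) in fve-4. AT5G59970 was at 169, 164 and 152 TPM in Col at 21 °C, 56, 52 and 46.7 in Col at 27 °C, 153, 157 and 187 in fve-4 at 21 °C and 117, 103 and 103 in fve-4 at 27 °C. Its change in Col of -1.63 was the lowest of the 38 genes, and at 27 °C every fve-4 library was above every Col library, with a ratio of 2.09 and a difference of 1.05 (SE 0.08, adjusted p = 2.11e-06). The pair with the identical upstream stretch printed above was measured at like levels. AT3G45930 was at 167, 150 and 150 TPM in Col at 21 °C, 55, 58.8 and 60.5 in Col at 27 °C, 125, 129 and 153 in fve-4 at 21 °C and 90.6, 80.7 and 92.3 in fve-4 at 27 °C. AT3G46320 was at 195, 174 and 175 TPM in Col at 21 °C, 71.6, 68.7 and 62.3 in Col at 27 °C, 153, 141 and 153 in fve-4 at 21 °C and 109, 104 and 106 in fve-4 at 27 °C. Both had their lowest libraries in Col at 27 °C and a change of -1.41 in Col, with an SE of 0.08 for AT3G45930 and 0.06 for AT3G46320. AT3G46320 had the smallest adjusted p of the class in Col (5.89e-10), in the interaction (0.93 (SE 0.08, adjusted p = 9.92e-06)) and between genotypes at 21 °C (-0.28 (SE 0.06, adjusted p = 0.00485)).

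Among the remaining H4 genes, AT2G28740 was at 200, 215 and 204 TPM in Col at 21 °C, 97.8, 106 and 86.5 in Col at 27 °C, 199, 219 and 231 in fve-4 at 21 °C and 142, 135 and 129 in fve-4 at 27 °C. It fell in fve-4 with the smallest adjusted p of the class, -0.67 (SE 0.07, adjusted p = 8.55e-06), and its interaction was 0.42. AT3G53730 was at 188, 161 and 168 TPM in Col at 21 °C, 91.5, 87.1 and 78.4 in Col at 27 °C, 182, 201 and 199 in fve-4 at 21 °C and 141, 128 and 132 in fve-4 at 27 °C. Both genes were lowest in Col at 27 °C, with overlap of the genotypes at 21 °C. AT1G07820 was at 213, 211 and 194 TPM in Col at 21 °C, 149, 138 and 144 in Col at 27 °C, 231, 241 and 256 in fve-4 at 21 °C and 208, 207 and 188 in fve-4 at 27 °C. Every fve-4 library was above every Col library at the same temperature, with a ratio of 1.18 at 21 °C and 1.4 at 27 °C. Its interaction of 0.24 (adjusted p = 0.0299) lost its call without any 1 of 7 libraries, namely replicates 1 and 2 of Col at 21 °C, replicate 2 of Col at 27 °C, and replicates 1 and 2 of fve-4 at both 21 and 27 °C (range over the alternatives 0.0151 to 0.0724). AT1G07660, the H4 gene with an intron, was at 39.2 to 57.1 TPM and changed by -0.24 in Col (adjusted p = 0.0325) and 0.04 in fve-4 (adjusted p = 0.778). That Col call was lost without replicate 1 of Col at 21 °C (adjusted p = 0.152), replicate 1 of Col at 27 °C (0.0639) or replicate 3 of Col at 27 °C (0.135), in a range of 0.0026 to 0.152.

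H2B, the partner of H2A, had 9 genes above the filter. HTB9 (AT3G45980) had the highest mean level, at 493, 495 and 465 TPM in Col at 21 °C, 394, 386 and 382 in Col at 27 °C, 566, 568 and 577 in fve-4 at 21 °C and 458, 495 and 495 in fve-4 at 27 °C. At each temperature every fve-4 library was above every Col library, while fve-4 at 27 °C overlapped with Col at 21 °C. It fell by similar amounts, -0.32 (SE 0.04, adjusted p = 1.47e-05) in Col and -0.24 (SE 0.04, adjusted p = 0.00048) in fve-4, with an interaction of 0.08 (SE 0.06, adjusted p = 0.327), and was higher in fve-4 at 21 °C by 0.24 (SE 0.04, adjusted p = 0.0015). HTB2 (AT5G22880) was at 549, 531 and 533 TPM in Col at 21 °C, 293, 273 and 287 in Col at 27 °C, 494, 548 and 533 in fve-4 at 21 °C and 428, 428 and 408 in fve-4 at 27 °C. Its Col libraries at 27 °C were lowest, those of fve-4 at 27 °C came next, and the genotypes overlapped at 21 °C. The change was -0.92 (SE 0.05, adjusted p = 1.98e-09) in Col, the interaction 0.60 (SE 0.06, adjusted p = 3.09e-05) and the difference between genotypes at 27 °C 0.56 (SE 0.05, adjusted p = 2.25e-06). HTB1 (AT1G07790) was at 211, 212 and 202 TPM in Col at 21 °C, 86.1, 97.1 and 76.4 in Col at 27 °C, 200, 212 and 223 in fve-4 at 21 °C and 156, 143 and 139 in fve-4 at 27 °C. The genotypes overlapped at 21 °C and separated at 27 °C, and the change in fve-4 was -0.53 (SE 0.07, adjusted p = 8.22e-05). HTB11 (AT3G46030) was at 359, 367 and 340 TPM in Col at 21 °C, 191, 162 and 164 in Col at 27 °C, 369, 379 and 407 in fve-4 at 21 °C and 287, 288 and 284 in fve-4 at 27 °C. Its order was the same, with Col at 27 °C lowest and fve-4 at 27 °C between that group and the 21 °C groups.

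HTB4 (AT5G59910) fell in Col by 0.44 on the log2 scale (adjusted p = 1.16e-06) and had a change of -0.02 in fve-4 (adjusted p = 0.748). It was at 387, 395 and 376 TPM in Col at 21 °C, 292, 287 and 273 in Col at 27 °C, 364, 388 and 394 in fve-4 at 21 °C and 375, 365 and 389 in fve-4 at 27 °C. The Col libraries at 27 °C lay below all others, and the other 3 groups overlapped. HTB5 (AT2G37470) was at 80.1, 73.8 and 64 TPM in Col at 21 °C, 36.9, 27.4 and 24.9 in Col at 27 °C, 76.2, 67 and 84.7 in fve-4 at 21 °C and 50.8, 42.8 and 45.7 in fve-4 at 27 °C. The libraries at 27 °C were below those at 21 °C in both genotypes, and the genotypes overlapped at 21 °C. It fell in both, and its interaction of 0.58 (adjusted p = 0.0279) was lost without any 1 of 6 libraries: replicates 1 and 2 of Col at 21 °C, replicates 2 and 3 of Col at 27 °C, replicate 2 of fve-4 at 21 °C and replicate 1 of fve-4 at 27 °C (range over the alternatives 0.00264 to 0.0724). HTB3 (AT2G28720), at 60.4 to 106 TPM, and HTB6 (AT3G53650), at 2.79 to 13.1 TPM, fell in both genotypes. HTB7 (AT3G09480) stood apart: at 1.93 to 8.93 TPM it was the H2B gene whose fall in Col was not called (-0.39, adjusted p = 0.0548), and it was higher in fve-4 by 0.72 at 21 °C (ratio 1.8, adjusted p = 0.00753) and by 1.13 at 27 °C (ratio 2.48, adjusted p = 0.000208). Its lowest library had 7 reads, and its fall in Col was called after median-ratio rescaling (-0.48, adjusted p = 0.0206), with quantile normalization (-0.35, adjusted p = 0.049) and without replicate 1 or 2 of Col at 27 °C (0.0261 and 0.021), in a range of 0.0206 to 0.279.

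The H2A genes HTA10 and HTA13 fell in Col with no called change in fve-4. HTA10 (AT1G51060), the most abundant of the class, was at 300, 289 and 297 TPM in Col at 21 °C, 156, 152 and 125 in Col at 27 °C, 218, 251 and 260 in fve-4 at 21 °C and 231, 215 and 212 in fve-4 at 27 °C. Its Col libraries at 27 °C were below all others, and the 2 groups of fve-4 overlapped. It changed by -1.04 (SE 0.08, adjusted p = 8.69e-08) in Col and by -0.14 (SE 0.08, adjusted p = 0.17) in fve-4, with an interaction of 0.89 (SE 0.11, adjusted p = 8.31e-05) and a difference at 27 °C of 0.61 (SE 0.08, adjusted p = 8.15e-05). The fve-4 change was called after median-ratio rescaling (adjusted p = 0.0284), in limma-voom on recovered reads (0.0129) and without replicate 1 of fve-4 at 21 °C (0.048), in a range of 0.0129 to 0.438. HTA13 (AT3G20670) was at 162, 137 and 148 TPM in Col at 21 °C, 70.5, 84.2 and 65.5 in Col at 27 °C, 112, 136 and 138 in fve-4 at 21 °C and 116, 116 and 125 in fve-4 at 27 °C. It showed the same order, with an interaction of 0.91 (SE 0.14, adjusted p = 0.000296). HTA2 (AT4G27230) was at 115, 104 and 112 TPM in Col at 21 °C, 82.2, 84.6 and 81.3 in Col at 27 °C, 100, 108 and 105 in fve-4 at 21 °C and 94.6, 93.6 and 87.3 in fve-4 at 27 °C. The Col libraries at 27 °C were lowest and the genotypes overlapped at 21 °C. It fell in fve-4, -0.19 (SE 0.05, adjusted p = 0.0102), a call lost without replicate 3 of fve-4 at 27 °C (adjusted p = 0.0533, in a range of 0.000989 to 0.0533). Its interaction of 0.23 (adjusted p = 0.0269) was lost without any 1 of 6 libraries: replicates 1 and 3 of Col at 21 °C, replicate 3 of Col at 27 °C, replicate 1 of fve-4 at 21 °C and replicates 1 and 2 of fve-4 at 27 °C (range over the alternatives 0.0122 to 0.0652). HTA1 (AT5G54640), known as RAT5 from its role in T-DNA integration, was at 47.1 to 56.3 TPM in Col at 21 °C and at 61.5 to 65.5 TPM at 27 °C. Its rise of 0.26 (adjusted p = 0.0035) was not called after median-ratio rescaling (0.0554), quantile normalization (0.0952) or in limma-voom (0.087), in a range of 0.00217 to 0.0952. At 21 °C it was higher in fve-4, 0.25 (SE 0.07, adjusted p = 0.0155), in a range of 0.0123 to 0.0767 with 4 alternatives above the threshold.

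The H2A.X genes, whose products are phosphorylated at DNA breaks, fell in Col by similar amounts. HTA5 (AT1G08880), the more abundant, was at 209, 194 and 213 TPM in Col at 21 °C, 133, 131 and 115 in Col at 27 °C, 173, 169 and 183 in fve-4 at 21 °C and 149, 144 and 132 in fve-4 at 27 °C. Its 27 °C libraries were all below the 21 °C ones of their genotype, and the genotypes overlapped at 27 °C. The change was -0.70 (SE 0.06, adjusted p = 4.6e-07) in Col and -0.30 (SE 0.06, adjusted p = 0.00205) in fve-4. At 21 °C it was lower in fve-4, -0.23 (SE 0.06, adjusted p = 0.0188), in a range of 0.00154 to 0.0733 with 4 left-out libraries (replicates 1 and 3 of Col and 1 and 2 of fve-4, all at 21 °C) above the threshold. HTA3 (AT1G54690) was at 109, 105 and 98.7 TPM in Col at 21 °C, 71.9, 65 and 57.1 in Col at 27 °C, 88.5, 85.9 and 95.8 in fve-4 at 21 °C and 80, 81 and 80.1 in fve-4 at 27 °C. No groups overlapped in the comparisons made, and Col at 27 °C was lowest. Its interaction was 0.52 (SE 0.10, adjusted p = 0.00178), and it was higher in fve-4 at 27 °C by 0.32 (SE 0.07, adjusted p = 0.00416). Its change in fve-4 was -0.16 (adjusted p = 0.0951) and its difference at 21 °C -0.21 (adjusted p = 0.0534). Both were called without replicate 3 of Col at 27 °C (0.0365 and 0.0173), and the former in 5 and the latter in 8 of the alternatives, in ranges of 0.0141 to 0.286 and 0.0084 to 0.169.

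H2A.W keeps to heterochromatin, and its 3 genes did not move alike. HTA6 (AT5G59870) was at 386, 362 and 360 TPM in Col at 21 °C, 159, 142 and 143 in Col at 27 °C, 294, 332 and 319 in fve-4 at 21 °C and 242, 226 and 229 in fve-4 at 27 °C. None of its groups overlapped, in the order Col at 27 °C, fve-4 at 27 °C, fve-4 at 21 °C and Col at 21 °C. It changed by -1.31 (SE 0.06, adjusted p = 5.96e-10) in Col and -0.44 (SE 0.06, adjusted p = 4.09e-05) in fve-4, with an interaction of 0.88 (SE 0.08, adjusted p = 9.07e-06). Relative to Col it was lower in fve-4 at 21 °C, -0.23 (SE 0.06, adjusted p = 0.00992), and higher at 27 °C, 0.65 (SE 0.06, adjusted p = 3.7e-06). HTA7 (AT5G27670), whose product is phosphorylated after DNA damage, fell by 0.49 in Col and by 0.31 in fve-4 on the log2 scale, with an interaction of 0.19 (adjusted p = 0.118), called without replicate 2 of Col at 21 °C (0.0468) or replicate 1 of Col at 27 °C (0.0449), in a range of 0.0449 to 0.251. HTA12 (AT5G02560), at 11.8 to 16.2 TPM, was not called in any comparison. HTA4, at 4.79 to 10.6 TPM, was called in 1 comparison, lower in fve-4 at 21 °C by 0.68 on the log2 scale (adjusted p = 0.0148), a call lost without replicate 2 (0.0553) or 3 (0.0634) of Col at 21 °C in a range of 0.00359 to 0.0634. Its interaction of 0.43 (adjusted p = 0.218) was 0.64 and called without replicate 3 of Col at 27 °C (0.0355, in a range of 0.0355 to 0.461).

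The H3.3 genes, which supply histone H3 outside replication, were not called alike: in Col HTR4 and HTR5 rose and HTR8 fell. HTR5 (AT4G40040) was at 494, 472 and 479 TPM in Col at 21 °C, 534, 543 and 534 in Col at 27 °C, 619, 605 and 597 in fve-4 at 21 °C and 572, 578 and 571 in fve-4 at 27 °C. Its fve-4 libraries at 21 °C were highest and the Col libraries at 21 °C lowest, with no overlap. The rise in Col was 0.16 (SE 0.03, adjusted p = 0.00146), but 0.06 after median-ratio rescaling (0.253) or in limma-voom (0.269, range from 1.14e-06 to 0.269). In fve-4 the change was -0.08 (SE 0.03, adjusted p = 0.0824). It was -0.16 and called after median-ratio rescaling (0.00811) and in limma-voom (0.0058), and 0.05 and not called with quantile normalization, in a range of 0.0058 to 0.284. The interaction was -0.24 (SE 0.05, adjusted p = 0.00264). It was higher in fve-4 at 21 °C, 0.33 (SE 0.03, adjusted p = 3.85e-05), and at 27 °C by 0.09 (SE 0.03, adjusted p = 0.0467), a call lost in 16 of the alternatives (range 0.0442 to 0.24). HTR4 (AT4G40030), whose span ends 42 bases from that of HTR5, was at 369, 346 and 354 TPM in Col at 21 °C, 429, 440 and 425 in Col at 27 °C, 373, 366 and 359 in fve-4 at 21 °C and 341, 345 and 346 in fve-4 at 27 °C. The 3 Col libraries at 27 °C were above all others. Its rise in Col was 0.28 (SE 0.04, adjusted p = 1.96e-05), the change in fve-4 -0.09 (SE 0.04, adjusted p = 0.078) and the interaction -0.36 (SE 0.05, adjusted p = 0.000213). The fve-4 change was -0.16 and called after median-ratio rescaling (0.00691) and in limma-voom (0.00658), in a range of 0.00658 to 0.365. The difference between genotypes was 0.04 (SE 0.04, adjusted p = 0.492) at 21 °C and -0.33 (SE 0.04, adjusted p = 2.92e-05) at 27 °C. HTR8 (AT5G10980) was at 345, 344 and 349 TPM in Col at 21 °C, 270, 258 and 248 in Col at 27 °C, 428, 418 and 404 in fve-4 at 21 °C and 312, 323 and 312 in fve-4 at 27 °C. It was lower at 27 °C and higher in fve-4, without overlap. It fell in Col, -0.42 (SE 0.04, adjusted p = 8.29e-07), and in fve-4, -0.40 (SE 0.04, adjusted p = 4.99e-06), with an interaction of 0.02 (SE 0.06, adjusted p = 0.831). It was higher in fve-4 by 0.27 (SE 0.04, adjusted p = 0.00048) at 21 °C and by 0.29 (SE 0.04, adjusted p = 0.000139) at 27 °C.

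H3.3 was 52.6 ± 1.2% (SD, n = 3) of the summed H3.1 and H3.3 TPM in Col at 21 °C, 74.3 ± 1% in Col at 27 °C, 58.6 ± 2.8% in fve-4 at 21 °C and 62 ± 1.2% in fve-4 at 27 °C. The Col libraries at 27 °C, at 73.1, 74.7 and 75%, were above every other library, and those at 21 °C, at 51.3, 53 and 53.6%, below every other. The fve-4 libraries overlapped between temperatures, at 61.4, 58.7 and 55.8% at 21 °C and 60.9, 63.3 and 61.8% at 27 °C. These values come from TPM per gene span, introns included. With exon lengths the shares were 58.2, 78.1, 64 and 67% in the same order of groups. No test was run on these shares.

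**Figure D4:**
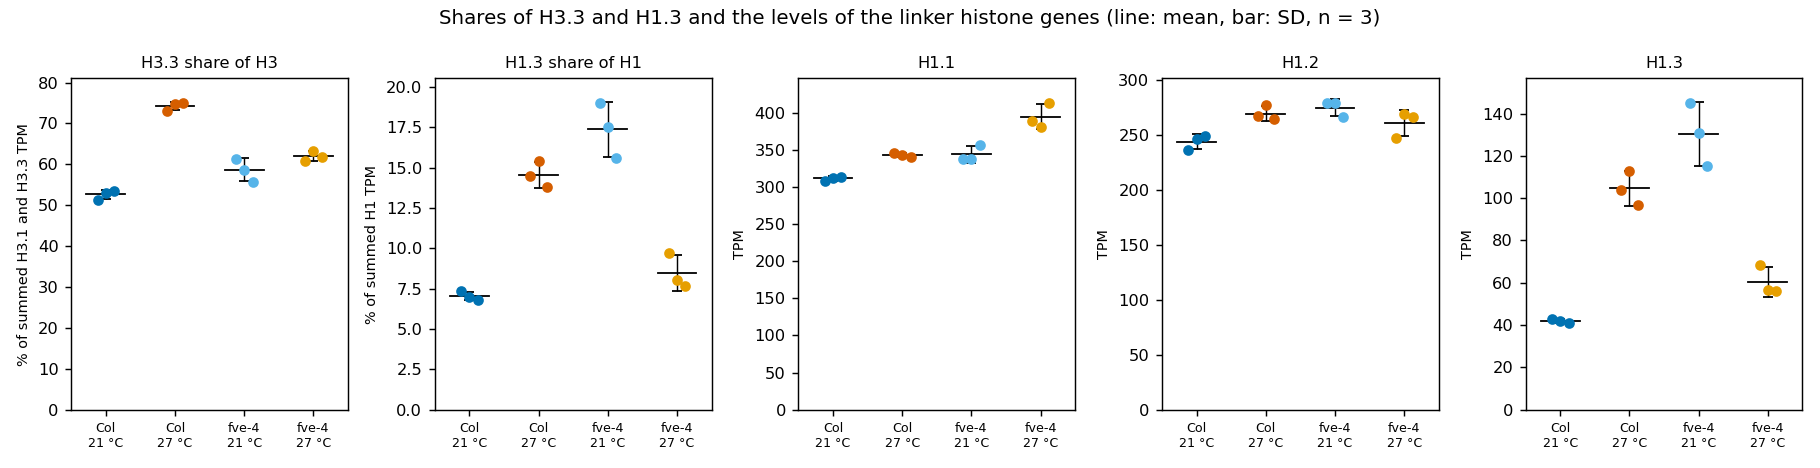
From left to right, the H3.3 share of summed H3 TPM, the H1.3 share of summed H1 TPM, and the TPM of H1.1, H1.2 and H1.3 in the 12 libraries (points), with the mean and SD of each group of 3. The H3.3 share is highest in Col at 27 °C (74.3%), and H1.3 is high in Col at 27 °C and in fve-4 at 21 °C and low in the other 2 groups.

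All 3 linker histone genes rose in Col, and H1.3 moved in opposite directions in the 2 genotypes. H1.3 (AT2G18050), a linker histone known to be induced by drought and low light, was at 43.1, 41.8 and 41.2 TPM in Col at 21 °C, 104, 113 and 96.8 in Col at 27 °C, 145, 131 and 115 in fve-4 at 21 °C and 68.5, 56.6 and 56.1 in fve-4 at 27 °C. The Col libraries at 27 °C were all above those at 21 °C, the fve-4 libraries at 27 °C all below those at 21 °C, and no groups overlapped. It rose by 1.29 (SE 0.09, adjusted p = 3.27e-08) in Col, a ratio of 2.49, and changed by -1.10 (SE 0.09, adjusted p = 7.62e-07) in fve-4, a ratio of 0.464. The interaction was -2.39 (SE 0.13, adjusted p = 2.52e-07). In fve-4 relative to Col it was higher at 21 °C, 1.60 (SE 0.09, adjusted p = 1.53e-07), a ratio of 3.1, and lower at 27 °C, -0.79 (SE 0.09, adjusted p = 2.79e-05), a ratio of 0.577. These 5 calls held under every alternative tried. Its share of summed H1 TPM was 7.05 ± 0.27% (SD, n = 3) in Col at 21 °C, 14.6 ± 0.81% in Col at 27 °C, 17.4 ± 1.7% in fve-4 at 21 °C and 8.46 ± 1.1% in fve-4 at 27 °C.

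H1.1 and H1.2 are the main linker histones of most tissues. H1.1 (AT1G06760) was at 308, 312 and 314 TPM in Col at 21 °C, 346, 343 and 340 in Col at 27 °C, 337, 338 and 357 in fve-4 at 21 °C and 389, 381 and 413 in fve-4 at 27 °C. Libraries at 27 °C were above those at 21 °C in each genotype, without overlap. It changed by 0.14 (SE 0.04, adjusted p = 0.0084) in Col and 0.20 (SE 0.04, adjusted p = 0.00164) in fve-4, with an interaction of 0.06 (SE 0.06, adjusted p = 0.475). In limma-voom the fve-4 rise was 0.12 and not called (0.0503, the highest of a range from 0.000506). It was higher in fve-4 by 0.14 (SE 0.04, adjusted p = 0.0214) at 21 °C and by 0.20 (SE 0.04, adjusted p = 0.00181) at 27 °C. The 21 °C call was lost after median-ratio rescaling (0.09, 0.183), in limma-voom (0.09, 0.214) and without replicate 1 (0.0613) or 2 (0.056) of Col or 3 of fve-4 (0.0784) at 21 °C, in a range of 0.00639 to 0.214. H1.2 (AT2G30620) was at 236, 246 and 249 TPM in Col at 21 °C, 267, 277 and 264 in Col at 27 °C, 279, 279 and 266 in fve-4 at 21 °C and 247, 269 and 266 in fve-4 at 27 °C. The 3 Col libraries at 21 °C were below most others, and the 2 groups at 27 °C overlapped. Its change was 0.15 (SE 0.04, adjusted p = 0.00994) in Col and -0.08 (SE 0.04, adjusted p = 0.187) in fve-4, with an interaction of -0.22 (SE 0.06, adjusted p = 0.0143). Between genotypes it differed by 0.17 (SE 0.04, adjusted p = 0.0114) at 21 °C and by -0.05 (SE 0.04, adjusted p = 0.413) at 27 °C. At 21 °C the difference was 0.12 and not called after median-ratio rescaling (0.0891) or in limma-voom (0.0899), in a range of 0.00623 to 0.0899. The change of H1.2 in fve-4 was -0.15 and called lower after median-ratio rescaling (0.0248) and in limma-voom (0.0204), in a range of 0.0204 to 0.528. After median-ratio rescaling, the rise in Col was 0.04 for H1.1 (adjusted p = 0.488, range 8.04e-05 to 0.521) and 0.05 for H1.2 (adjusted p = 0.434, range 0.000671 to 0.448), neither of them called.

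Gene structure was not used to choose the genes. Of the 21 tested members with a single exon, 20 fell in Col and 0 rose, with a median of -1.09, and HTB7 was the exception. Of the 17 with introns, 9 fell and 6 rose, with a median of -0.24. In fve-4 the counts were 18 lower and 0 higher of 21 without introns, with a median of -0.48, and 6 lower and 1 higher of 17 with introns, with a median of -0.11. Structure and class are tied, since all tested H2B and H3.1 genes have a single exon and all H2A, H3.3 and H1 genes have introns. Among the upstream elements, 8 of the 10 genes with the octamer fell in Col and 2 rose, the printed HTR5 and H1.1. Of the 28 tested genes without the octamer, 21 fell and 4 rose. All 10 tested genes with the hexamer fell in Col, and 19 of the 28 without it. The hexamer is tied to class too: it lies before 8 H2B genes (the untested HTB10 among them), 2 H3.1 genes and 1 H3.3 gene. In Col 8 of 9 tested H2B genes and all 5 H3.1 genes fell. All 3 with the E2F site fell, and 26 of the 35 without it. Over all genes tested, 25.1% fell and 36.7% rose in Col, and 14% fell and 25.2% rose in fve-4.

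Genes of DNA replication also fell in Col. Of 21 DNA replication genes, 18 fell in Col and 0 rose, with a median change of -0.65, and 6 fell in fve-4 and 0 rose, with a median of -0.24. In the interaction 11 were higher and 0 lower. TSO2, a small subunit of the ribonucleotide reductase that makes deoxynucleotides, changed by -1.24 (SE 0.07, adjusted p = 3.04e-09) in Col and -0.51 (SE 0.07, adjusted p = 3.8e-05) in fve-4. RNR1, its large subunit, fell by 0.88 and 0.40 on the log2 scale. At 21 °C, 5 of the 21 were lower in fve-4 and 0 higher, led by TSO2 (-0.43, adjusted p = 0.000558) and the thymidine kinase TK1A (-0.49, adjusted p = 0.00151). At 27 °C, 10 were higher and 0 lower, led by the reductase subunit RNR2A (0.59, adjusted p = 0.000246) and the replication clamp PCNA2 (0.55, adjusted p = 0.000695). In the interaction TSO2 (0.73) and RNR2A (0.81) had the smallest adjusted p. Of all genes, 25.1% fell and 36.7% rose in Col, and 14% fell and 25.2% rose in fve-4. In the interaction 14.4% of all genes were higher and 18% lower. Between genotypes 15.3% were higher in fve-4 and 8.49% lower at 21 °C, and 20.9% and 17.6% at 27 °C.

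Of 14 mitotic genes, 9 fell in Col and 0 rose, with a median of -0.27, led by the cyclin CYCB1;1 (-0.80, adjusted p = 6.86e-06) and the Aurora kinase AUR2 (-0.67, adjusted p = 9.56e-05). Of all genes, 25.1% fell and 36.7% rose in Col. In fve-4, 2 fell, CYCB1;1 (-0.50) and CYCB1;4 (-0.29), beside 14% of all genes, and the median was -0.01. In the interaction 4 were higher and 0 lower, beside 14.4% and 18% of all genes, led by AUR1 (0.47) and AUR2 (0.54). At 21 °C, 5 were lower in fve-4 and 0 higher, beside 8.49% and 15.3% of all genes, led by the cytokinesis syntaxin KNOLLE (-0.42) and AUR1 (-0.46). At 27 °C, 1 was higher, CYCB1;1 (0.29), and 1 lower, CDKB2;1 (-0.31), beside 20.9% and 17.6% of all genes. The part of cell division in the histone result was not tested.

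**Figure D5:**
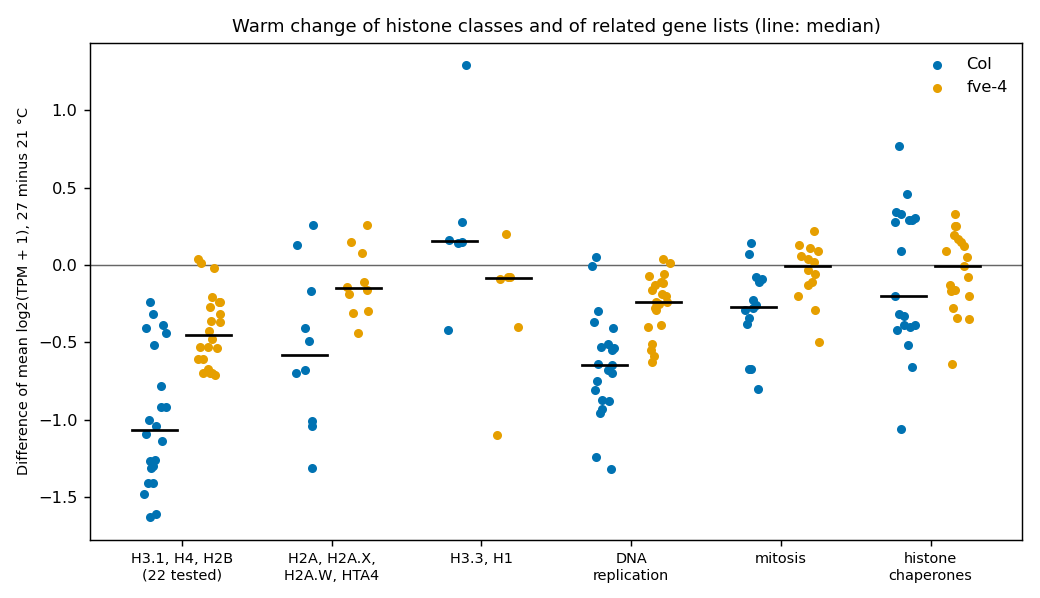
Change from 21 to 27 °C, as the difference of mean log2(TPM + 1), of each tested gene in 3 sets of histone classes and in 3 related gene lists, in Col (blue) and fve-4 (orange); the black lines are medians. The DNA replication genes have medians of -0.65 in Col and -0.24 in fve-4, and the mitotic genes -0.27 and -0.01.

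Histone chaperones, which carry histones to and from DNA, numbered 19. In Col 8 rose and 9 fell, with a median of -0.20, beside 36.7% and 25.1% of all genes, and in fve-4 3 rose and 6 fell, beside 25.2% and 14%. The H2A-H2B chaperones NRP1 (-0.66 in Col and -0.35 in fve-4) and NRP2 (-1.06 and -0.64) had the smallest adjusted p in both. The interaction called 4 higher and 2 lower, led by the H3-H4 chaperone NASP (0.35) and NRP1 (0.32). At 21 °C, 0 were higher and 2 lower in fve-4, CABIN1 (-0.48) and NRP1 (-0.22). At 27 °C, 3 were higher and 6 lower, led by NAP1;2 (-0.35) and ASF1B (0.38). Of the 3 E2F factors, which act on S-phase promoters, E2FB rose in Col (0.48, adjusted p = 0.00517), E2FA fell in Col (-0.35, adjusted p = 0.0304) and in fve-4 (-0.36, adjusted p = 0.0367), and no other comparison had a call. Of 9 other histone genes 6 were tested: 1 rose and 3 fell in Col, 1 rose in fve-4, and 3 were higher and 1 lower in the interaction. The H2A.Z gene HTA9 rose in Col (0.57) and in fve-4 (0.23) and was higher in fve-4 at 21 °C (0.41), with an interaction of -0.34. The H2A.Z gene HTA11 fell in Col (-0.74), with an interaction of 0.57. At 27 °C, 2 of these 6 were higher in fve-4, HTA11 (0.34) and HTA8 (0.33), and 1 lower. Of all genes, 14.4% were higher and 18% lower in the interaction. Between genotypes 15.3% were higher in fve-4 and 8.49% lower at 21 °C, and 20.9% and 17.6% at 27 °C.

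Markers of organs also differed between the groups compared. The 10 root markers summed to 2975 to 3153 TPM in Col at 21 °C, 1884 to 2410 in Col at 27 °C, 2452 to 2613 in fve-4 at 21 °C and 2494 to 3272 in fve-4 at 27 °C. Of the 10, 7 fell in Col and 0 rose, and in fve-4 0 were called. In the interaction 1 was higher, PYK10 (0.62). At 21 °C 1 was lower in fve-4, PYK10 (-0.34), and at 27 °C 9 were higher. The group of Col at 27 °C includes replicate 3, the lowest of that group in each of the 10. In fve-4 at 27 °C, PYK10 was at 2822 TPM in replicate 1, against 2125 and 2164 in replicates 2 and 3. PYK10 alone was at 1738 to 2822 TPM over the libraries, so the sum follows it. At 21 °C the sum was lower in fve-4, but the median change of the 10 markers was 0.29. All 10 were detected, and their part in the histone result was not tested. The 8 meristem markers summed to 61.2 to 63.5 TPM in Col at 21 °C, 52.2 to 57.9 in Col at 27 °C, 62.9 to 66.1 in fve-4 at 21 °C and 56.4 to 64.3 in fve-4 at 27 °C. WUS, the organizer of the shoot meristem, was above 0 in 1 library, and CLV3 was below 1 TPM in all. Of the 6 tested, 2 rose and 2 fell in Col, 1 fell in fve-4, 1 was higher and 1 lower in the interaction, 0 were called at 21 °C, and 3 were higher and 2 lower in fve-4 at 27 °C. ANT, a growth regulator of young organs, fell in Col (-0.53, adjusted p = 6.08e-06) and was higher in fve-4 at 27 °C (0.52, adjusted p = 4.31e-05). The shoot meristem genes STM and KNAT1 went the other way: STM rose in Col (0.71, adjusted p = 0.00146) and was lower in fve-4 at 27 °C (-0.60, adjusted p = 0.00872), and KNAT1 rose in Col (0.42, adjusted p = 0.0013) and was lower in fve-4 at 27 °C (-0.73, adjusted p = 6.68e-05). The 4 leaf markers summed to 34136 to 35862 and 27532 to 31095 TPM in Col and to 33361 to 34080 and 26840 to 27503 TPM in fve-4, at 21 and 27 °C. Of these, 1 rose and 1 fell in Col, 2 fell in fve-4, 1 was lower in the interaction, 1 was higher in fve-4 at 21 °C and 1 lower at 27 °C. The 4 seed markers summed to 19 to 76 TPM over all libraries, with 2 higher in Col and 1 in fve-4 at 27 °C and 0 called in the other comparisons. The sperm markers were below the filter. Beside these marker lists, 25.1% of all genes fell and 36.7% rose in Col, and 14% fell and 25.2% rose in fve-4. In the interaction 14.4% of all genes were higher and 18% lower. Between genotypes 15.3% were higher in fve-4 and 8.49% lower at 21 °C, and 20.9% and 17.6% at 27 °C.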

How the data were processed

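RNA was measured in 12 seedling libraries, 3 for each genotype and temperature, and each library was put in its group by its title. The deposited values are TPM, whose columns sum to 1000000, although the file headers call them gene counts. Per the submitters' processing notes, reads were handled with fastp 0.20.1 and HISAT2 and the build was TAIR10. The read counter and its use of strand are not given in the sources used here. The TPM divide by gene span, introns included: with spans, whole reads came back within 0.01 for 99.98% of genes above 0. Depth was 11454833 to 14554413 recovered reads per library, and floors cover counting error only.

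Values were tested as log2(TPM + 1) with limma 3.58.1 (R 4.3.3, trended variance) in 1 fit of 4 group means with 8 residual degrees of freedom, after keeping 19863 genes with at least 1 TPM in at least 3 libraries. Adjusted p-values are Benjamini-Hochberg over all genes of a comparison. Genes given full statistics were, per class and comparison, the called gene with the smallest adjusted p, and every H3.3 and H1 gene. Values in every library are given for those with the highest mean of a class, for every H3.3 and H1 gene and for genes called in the interaction. From each related list, the 2 called genes with the smallest adjusted p were named. PYK10, PER45, ANT, STM, KNAT1, WUS, CLV3 and HTB7 were picked after their values were seen. The members and gene lists were chosen with earlier results of these data known. The fit was tested on simulated data. Alternatives covered the pseudocount, filter, scaling, replicate block, groups fitted, exon lengths, limma-voom and leaving out each library. limma-voom and, for the calls, exon lengths were added after seeing the data.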

Additional observations from a re-analysis of the deposited data

Results flagged for a closer look

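The warm change differed between fve-4 and Col, by the interaction term of limma, in 26 of the 38 tested genes. Of these, 22 were higher and 4 lower, against 14.4% and 18% of all genes tested. The values below are the change in fve-4 minus that in Col on the log2(TPM + 1) scale. Among the H2A family they were 0.23 for HTA2, 0.89 for HTA10, 0.91 for HTA13, 0.52 for HTA3, 0.40 for HTA5 and 0.88 for HTA6. Among H2B genes they were 0.73 for HTB1, 0.60 for HTB2, 0.42 for HTB4, 0.58 for HTB5 and 0.62 for HTB11. Among H3.1 genes they were 0.96 for HTR2, 0.90 for HTR13, 1.1 for HTR9 and 0.90 for HTR1. Among H4 genes they were 0.24 for AT1G07820, 0.42 for AT2G28740, 0.79 for AT3G45930, 0.93 for AT3G46320, 0.46 for AT3G53730, 0.55 for AT5G59690 and 1.02 for AT5G59970. The values below 0 were -0.36 for HTR4, -0.24 for HTR5, -0.22 for H1.2 and -2.39 for H1.3. The calls of HTA2, HTB5 and AT1G07820 did not hold under every alternative, as given above.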

How the results depend on the processing

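Of the calls on histone genes, 30 of 35 in Col, 23 of 25 in fve-4, 23 of 26 in the interaction, 8 of 16 at 21 °C and 27 of 31 at 27 °C held under every alternative run, and no called value changed sign. The uncalled change of HTR5 in fve-4 ran from -0.16 to 0.05. With median-ratio rescaling the count of genes that rose in Col went from 6 to 2, and at 21 °C fve-4 was higher in 6 and lower in 10. With limma-voom on recovered reads, an alternative chosen after seeing the data, 2 rose in Col, 0 rose in fve-4 (H1.1 then had an adjusted p of 0.0503, in a range of 0.000506 to 0.0503), and at 21 °C 6 were higher and 11 lower. Of the 19762 genes in that fit, 6053 rose in Col, 3906 rose in fve-4, and at 21 °C 2271 were higher and 2719 lower. The cause of these shifts in the histone counts was not tested. Leaving out 1 library at a time gave 6 higher and 28 to 30 lower in Col, 1 to 2 higher and 23 to 26 lower in fve-4, 19 to 24 higher and 4 lower in the interaction, 8 to 10 higher and 3 to 9 lower at 21 °C, and 25 to 29 higher and 2 lower at 27 °C. The count of 2 higher in fve-4 came without replicate 1 of Col at 21 °C. At 21 °C, 3 were lower without replicate 1 or 3 of Col or replicate 1 of fve-4, and 9 without replicate 3 of fve-4. Over 0.1 were 2 of 18 same-number correlations (-0.14 to 0.19) and 4 of 36 different-number ones (-0.25 to 0.18). With 3 libraries per group this cannot decide whether the numbers pair the libraries. With the replicate block the counts were 6 and 29, 1 and 24, 22 and 4, 10 and 6, and 28 and 2, where HTR5 at 27 °C lost its call. The planned edgeR fit was not run, and limma-voom on the recovered reads was run as the count-based alternative. Depth limits HTB8, which was not tested, and HTA4, HTB6, HTB7 and HTR3, the 4 tested genes with fewer than 100 reads in at least 1 library. HTB10 was not tested either, and its 0 reads may reflect depth or how reads of its overlap with HTA12 were assigned.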
